A study of Macaca nemestrina with 15 samples.

Results

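The genes described here encode B-cell surface molecules that lie outside the antigen receptor complex and set how strongly a B cell responds: *CR2* (CD21), *FCER2* (CD23), *CD40*, *CD72*, *CD180*, *HVCN1* and *FCGR2B*. They were taken by name from the table of read counts, in which 6 of the 7 had a row among 28865 features. *FCGR2B*, the inhibitory Fc receptor of B cells, was not among the row names and was not analysed here. All 6 passed the filter on low counts, as did 12880 features in all.

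RNA was sequenced from the peripheral blood mononuclear cells (PBMCs) of 5 female pig-tailed macaques (*Macaca nemestrina*), each sampled 3 times. The pre-treatment samples, which the labels call the control, were taken before the first dose of islatravir (ISL), a nucleoside drug against HIV that blocks reverse transcriptase. By the study's methods, the week 12 samples followed 12 weekly oral doses of 30 mg/kg, and the week 18 samples came 6 weeks after the last dose. A figure legend of the study gives a shorter interval and an earlier week for the last sample. All animals received ISL, so a change over time in untreated animals was not measured, and time and treatment cannot be told apart. By the dates in the library names, which are not explained, the later samples lay 56 or 57 and 84 days after the first, and the labelled weeks are kept here as names. Z15339, Z15303 and Z15408 share dates at every time point, whereas Z15228 and Z13076 each have dates of their own.

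Each library held 5610597 to 10379572 counts. Expression is given as CPM, the counts scaled to a common library size by edgeR's TMM method. Differences are log2 fold changes (log2FC) with their standard error (SE), fitted by edgeR with the animal as a block and tested by its quasi-likelihood method. A gene passed the test at a Benjamini-Hochberg adjusted *p* under 0.05 over all 12880 features. The lowest member count was 23, for *CR2* in Z15303 at week 12, where the 95% exact Poisson interval of 4.24 CPM ran from 2.69 to 6.37. Such intervals cover counting error only. Gene lengths were not available, so levels are compared within a gene and not between genes.

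A B cell binds antigen through its receptor, and the molecules around that receptor raise or lower the signal. CD21 binds complement fragments on antigen and works with CD81 in a complex that lowers the threshold for activation. CD40 receives help from T cells through CD40 ligand, and CD180 is a relative of the Toll-like receptors that promotes B-cell proliferation. CD72 carries inhibitory motifs, CD23 is the low-affinity IgE receptor, and the proton channel encoded by *HVCN1* sustains the oxidative burst and receptor signalling. CD40, CD23, CD180, CD72 and the proton channel are also made by monocytes or dendritic cells, which PBMCs contain as well.

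At week 12, all 6 genes had a lower fitted level than before treatment, and none passed the test. Their log2FC lay between −0.91 for *CR2* and −0.30 for *CD72*, with a median of −0.55 beside 0.00054 over all features. The number passing was 0 of 6 by edgeR, and 0.00776% of all features passed. An unadjusted *p* under 0.05 with a lower level was found in 6 of 6 genes, and in 3.25% of all features. A lower level in 5 of 5 animals was found in 5 of the 6 genes, against 3.45% of all features. DESeq2's Wald test with the same block called 1 of the 6, *HVCN1*, and 0.235% of the features to which it gave an adjusted *p*. Limma-voom called 0 of the 6 and 0.109% of all features. With no filter on low counts, edgeR called 3 of the 6, *CR2*, *CD180* and *HVCN1*, and 0.4% of the 20732 features then tested.

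At week 18, the 6 fitted levels were again below those before treatment, with log2FC from −0.65 for *CD40* to −0.19 for *CD72*. The median was −0.38, beside −0.0046 over all features. None of the 6 passed by edgeR, DESeq2 or limma-voom. Of 12880 features, 0.00776% passed by edgeR and 0.14% by limma-voom, and by DESeq2 0.246% of 20732 passed. An unadjusted *p* under 0.05 with a lower level was found in 5 of 6 genes, against 3.78% of all features. A lower level in 5 of 5 animals was found in 3 of the 6, *FCER2*, *CD40* and *HVCN1*, against 3.49% of all features. Both comparisons use the same pre-treatment libraries, so their values are not independent of each other.

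Between week 12 and week 18, 5 of the 6 log2FC were positive, the largest being 0.34 (SE 0.23) for *CR2*, and *CD40* had −0.14 (SE 0.17). None of the 6 passed by edgeR (adjusted *p* of 1.00 for each), DESeq2 or limma-voom. Of 12880 features, 0% passed by edgeR and 0% by limma-voom, and by DESeq2 0.0386% of 20732 passed. An unadjusted *p* under 0.05 was found in 0 of the 6 by edgeR and DESeq2 and in 1 by limma-voom, and in 2.17% of all features by edgeR. Mean levels were thus ordered pre-treatment, week 18, week 12 for every gene but *CD40*, whose lowest mean was at week 18, and no neighbours in these orders differed by a difference that passed the test.

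**Figure D1:**
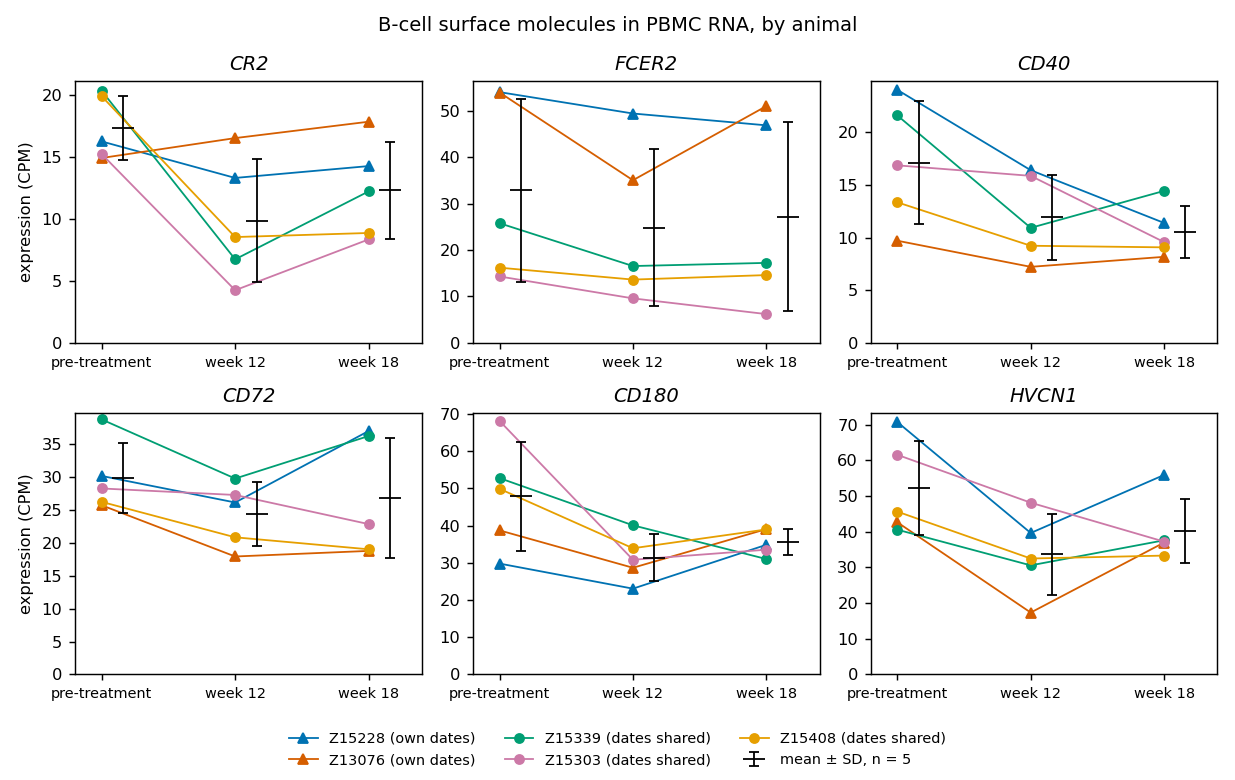
Expression in CPM (y axis) of the 6 genes at the 3 time points (x axis), with a line per animal and the mean ± SD of 5 animals in black. *CR2* at week 12 splits the animals into 13.3 and 16.5 CPM against 4.24 to 8.53 CPM, and *FCER2* keeps Z15228 and Z13076 above the other animals throughout.

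*CR2* encodes CD21, the complement receptor of mature B cells. Before treatment its level was 16.2 CPM in Z15228, 14.9 in Z13076, 20.3 in Z15339, 15.2 in Z15303 and 19.9 in Z15408. At week 12 it was 13.3, 16.5, 6.73, 4.24 and 8.53 CPM in the same order. At week 18 it was 14.2, 17.8, 12.2, 8.34 and 8.86 CPM. The animals were closest together before treatment, when the highest stood at 1.36 times the lowest, and spread to 3.89 times at week 12. Mean levels in order of time were 17.3 ± 2.59, 9.86 ± 4.97 and 12.3 ± 3.93 CPM (SD, n = 5). In edgeR's test the log2FC at week 12 was −0.91 (SE 0.23, unadjusted *p* = 0.00102, adjusted *p* = 0.362), a fold of 0.533. At week 18 it was −0.57 (SE 0.23, edgeR adjusted *p* = 0.814). From week 12 to week 18 its level went up in 5 of 5 animals, by 0.05 to 0.94 on the log2 scale.

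The lower *CR2* level at week 12 lay mainly in the 3 animals with shared dates. Their libraries lay at 4.24 to 8.53 CPM at week 12, below every pre-treatment library, while Z15228 was slightly lower and Z13076 slightly higher than before treatment. Fitted alone, the 3 animals gave a log2FC of −1.48 (SE 0.22, edgeR adjusted *p* = 0.0427), where 0.0539% of the 12996 features then tested passed. The other 2 gave −0.08 (SE 0.22, edgeR adjusted *p* = 0.931). The difference between the sets was −1.42 at week 12 (SE 0.31, unadjusted *p* = 0.000356, edgeR adjusted *p* = 0.0553) and did not pass, beside 0.0155% of all features that did. At week 18 the difference was −0.95 (SE 0.31, edgeR adjusted *p* = 0.153), where 0% of all features passed. Dates and animals cannot be told apart, and the test of the difference between the sets was added after the values were seen. Z15303 also had the fewest counts of all at both later time points (5610597 and 5886482). Without it the week 12 log2FC of *CR2* was −0.72 (edgeR adjusted *p* = 0.973), the smallest size among the fits that leave out an animal, and without Z13076 it was −1.17, the largest.

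*FCER2* encodes CD23, which marks naive and follicular B cells and is shed from the surface by the protease ADAM10. Its pre-treatment level was 54.0 CPM in Z15228, 53.9 in Z13076, 25.8 in Z15339, 14.3 in Z15303 and 16.2 in Z15408. In the same animals it was 49.4, 35.0, 16.6, 9.59 and 13.6 CPM at week 12, and 46.9, 51.0, 17.2, 6.21 and 14.6 CPM at week 18. Z15228 and Z13076 stood above the other 3 at every time point without overlap, and before treatment the highest animal was at 3.77 times the lowest. Differences between animals took 91.3% of the sum of squares of log2 CPM over the 15 libraries, and time points 4.56%. The means in order of time carried a wide SD, at 32.9 ± 19.8, 24.9 ± 16.8 and 27.2 ± 20.3 CPM (n = 5). Within animals the level was lower in 5 of 5 at both later time points. By edgeR the log2FC was −0.44 at week 12 (SE 0.15, adjusted *p* = 0.743) and −0.39 at week 18 (SE 0.15, adjusted *p* = 0.803).

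**Figure D2:**
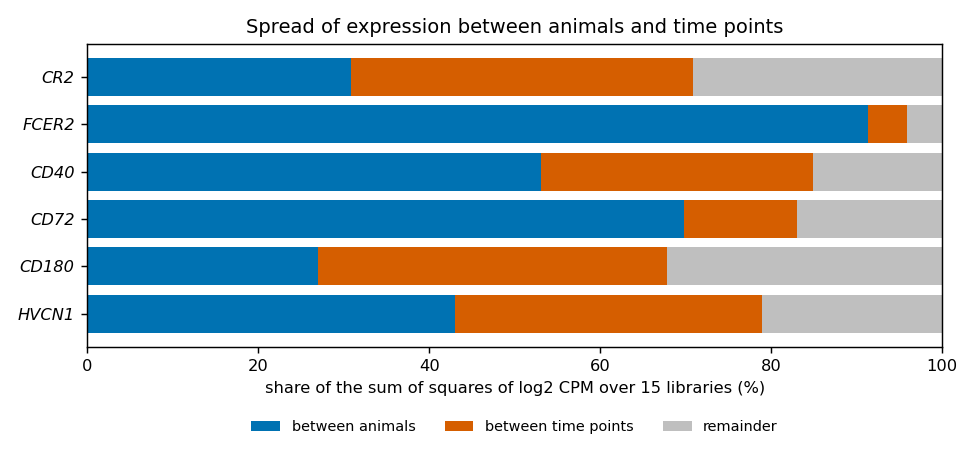
Share of the sum of squares of log2 CPM over 15 libraries (x axis, %) that lies between animals, between time points and in the remainder, for each gene. *FCER2* has 91.3% between animals, whereas *CR2* and *CD180* have 40.1% and 40.8% between time points.

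*CD40* encodes the receptor for T-cell help. It was at 24.0 CPM in Z15228, 9.71 in Z13076, 21.6 in Z15339, 16.9 in Z15303 and 13.4 in Z15408 before treatment. The week 12 values were 16.4, 7.23, 10.9, 15.9 and 9.23 CPM, and the week 18 values 11.4, 8.18, 14.4, 9.58 and 9.08 CPM. All animals were lower at both later time points, although the ranges of the time points overlapped. Mean levels were 17.1 ± 5.86, 11.9 ± 4.06 and 10.5 ± 2.48 CPM at pre-treatment, week 12 and week 18 (SD, n = 5). Its log2FC was −0.51 at week 12 (SE 0.17, edgeR adjusted *p* = 0.687) and −0.65 at week 18 (SE 0.17, unadjusted *p* = 0.00125, edgeR adjusted *p* = 0.309). Among the alternatives tried, the week 18 difference passed only where edgeR was run with no filter on low counts (adjusted *p* = 0.0477). In that fit 0.656% of the 20732 features tested passed.

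*CD72* encodes an inhibitory co-receptor of B cells that binds semaphorin 4D. Before treatment it was at 30.2 CPM in Z15228, 25.7 in Z13076, 38.8 in Z15339, 28.3 in Z15303 and 26.3 in Z15408. At week 12 the values were 26.2, 17.9, 29.8, 27.3 and 20.9 CPM, and at week 18 they were 37.0, 18.8, 36.3, 22.9 and 19.0 CPM. Against pre-treatment its log2FC were the smallest of the 6 genes in size, and Z15228 was above its pre-treatment level at week 18. Over the 5 animals the means were 29.9 ± 5.30, 24.4 ± 4.87 and 26.8 ± 9.14 CPM in order of time (SD, n = 5). EdgeR gave a log2FC of −0.30 at week 12 (SE 0.13, adjusted *p* = 0.982), with a lower level in 5 of 5 animals. At week 18 it gave −0.19 (SE 0.13, unadjusted *p* = 0.170, adjusted *p* = 0.899), with a lower level in 4 of 5.

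*CD180* encodes RP105, which needs the partner MD-1 (*LY86*) to reach the cell surface. Pre-treatment levels were 29.8 CPM in Z15228, 38.7 in Z13076, 52.8 in Z15339, 68.1 in Z15303 and 49.9 in Z15408. They were 23.0, 28.7, 40.1, 30.8 and 33.9 CPM at week 12, and 34.8, 39.1, 31.0, 33.5 and 39.0 CPM at week 18. Here the 3 animals with shared dates started above the other 2, in contrast to *FCER2*, and by week 18 all 5 lay within 1.26 times of each other. Means were 47.9 ± 14.6 CPM, 31.3 ± 6.31 and 35.5 ± 3.51 in order of time (SD, n = 5). The week 12 log2FC was −0.59 (SE 0.16, unadjusted *p* = 0.00167, edgeR adjusted *p* = 0.449), lower in 5 of 5 animals. The week 18 value of −0.38 (SE 0.16, edgeR adjusted *p* = 0.824) joined a log2FC of −0.70 in the 3 animals with shared dates to 0.11 in the other 2. The difference of −0.84 between these sets (SE 0.25, unadjusted *p* = 0.00462, edgeR adjusted *p* = 0.136) did not pass.

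*HVCN1* encodes the voltage-gated proton channel of B cells and phagocytes. The study names it among genes picked for their lower counts in these same libraries, so its direction is not independent evidence. Levels before treatment were 70.8 CPM in Z15228, 42.7 in Z13076, 40.6 in Z15339, 61.6 in Z15303 and 45.7 in Z15408. They were 39.7, 17.3, 30.6, 48.2 and 32.5 CPM at week 12, and 55.9, 37.0, 37.6, 37.2 and 33.3 CPM at week 18. Every animal was lower at both later time points, and Z13076 had the lowest level at week 12. Its 3 means were 52.3 ± 13.2, 33.6 ± 11.4 and 40.2 ± 8.96 CPM (SD, n = 5). *HVCN1* had the smallest *p* of the 6 genes at week 12, ranking 25 among all features, with a log2FC of −0.65 (SE 0.15, unadjusted *p* = 0.000491, edgeR adjusted *p* = 0.253), a fold of 0.636. DESeq2 with the same block gave −0.65 with an adjusted *p* of 0.0444. The week 18 log2FC was −0.35 (SE 0.15, edgeR adjusted *p* = 0.824).

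**Figure D3:**
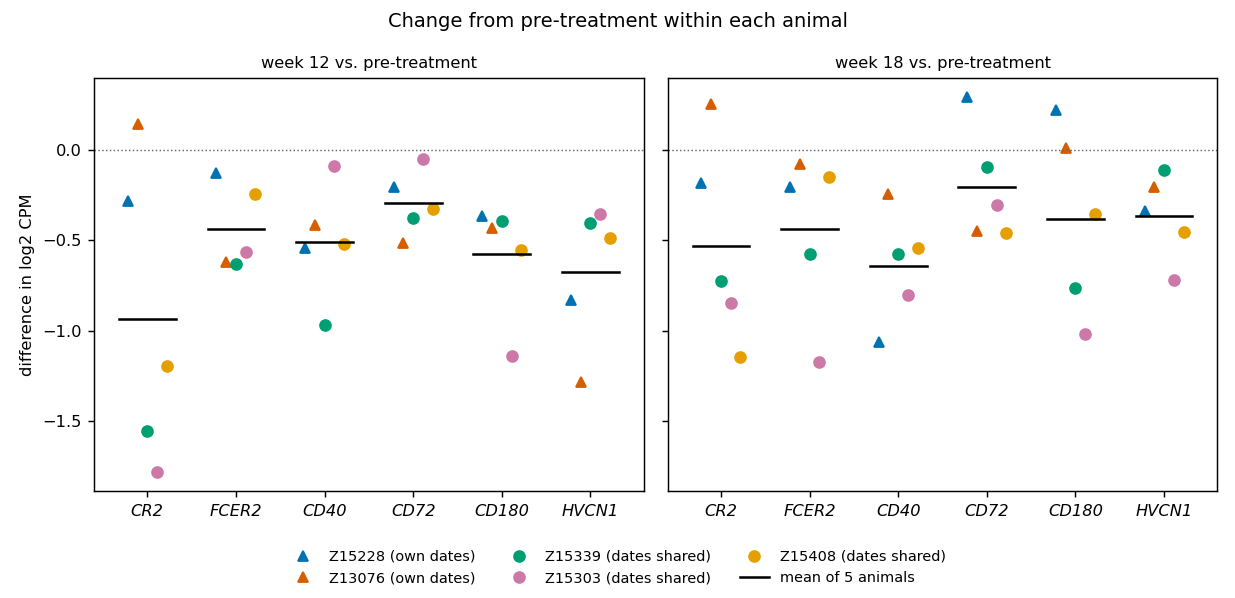
Difference in log2 CPM from the pre-treatment sample of the same animal (y axis) for each gene (x axis) at week 12 (left) and week 18 (right). Points are animals and bars are means of 5, and at week 12 a single point, *CR2* in Z13076 at 0.15, lies above 0.

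The levels were set beside markers of the cell types in PBMCs, since in bulk RNA fewer B cells and less RNA per B cell cannot be told apart. B-lineage markers were present: 13 of 16 listed genes were tested, *PAX5* and *TNFRSF13C* had at most 15 and 19 counts per library, and *SPIB* had no row under that name. Summed over the 13, they ranged from 275 to 1117 CPM before treatment (median 504), 158 to 566 at week 12 (median 330) and 203 to 467 at week 18 (median 253). Their median log2FC was −0.99 at week 12 and −1.005 at week 18. An unadjusted *p* under 0.05 with a lower level was found in 12 of 13 at each time, against 3.25% and 3.78% of all features. By edgeR 0 of the 13 passed, by DESeq2 9 at each time, against 0.235% and 0.246% of its features, and by limma-voom 6 and 5, against 0.109% and 0.14%. *MS4A1*, which encodes CD20, had a log2FC of −1.08 (SE 0.19, edgeR adjusted *p* = 0.0768) at week 12 and −1.14 (SE 0.19, edgeR adjusted *p* = 0.0534) at week 18. Several of these markers, *MS4A1* and *CD22* among them, were likewise picked by the study in these libraries. The part of the B-lineage markers in the values of the 6 genes was not tested.

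The lists for other cell types had medians nearer to 0. At week 12 the median log2FC was −0.15 over 11 monocyte markers, 0.12 over 10 T-cell markers, 0.11 over 8 NK-cell markers, −0.06 over 7 dendritic cell markers, −0.34 over 5 plasma cell markers and 0.19 over 6 platelet markers. At week 18 these medians were 0.23, 0.09, −0.08, −0.15, −0.41 and 0.07. Of the 2 red cell markers tested, the medians were −0.06 and −0.02. None of these markers passed by edgeR, DESeq2 or limma-voom. Against pre-treatment, an unadjusted *p* under 0.05 was found in at most 1 gene of a list at week 12 and 3 at week 18 (the plasma cell markers), beside 4.69% and 5.85% of all features. From week 12 to week 18, 4 of 11 monocyte markers had a higher level with an unadjusted *p* under 0.05, against 1.16% of all features. They were *CD14* at 0.59 (SE 0.20), *CD163* at 0.49 (SE 0.18), *CLEC7A* at 0.44 (SE 0.19) and *LYZ* at 0.44 (SE 0.15), each with an edgeR adjusted *p* of 1.00, and the median of the 11 was 0.33. The summed monocyte markers ranged from 2829 to 5087 CPM before treatment, 3004 to 4871 at week 12 and 3357 to 6749 at week 18. Their part in the levels of the 6 genes was not tested.

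**Figure D4:**
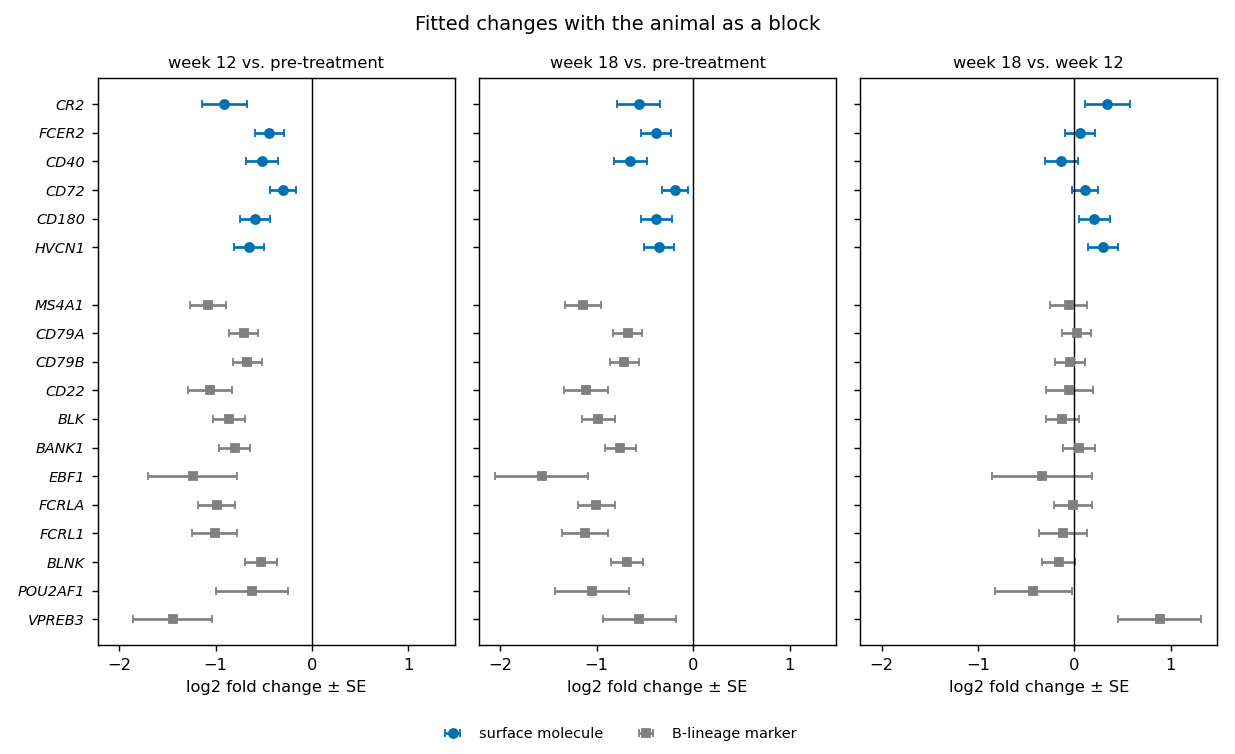
Log2 fold changes with their SE (x axis) from edgeR's fit with the animal as a block, for the 6 genes (circles) and 12 of the 13 B-lineage markers tested (squares), in the 3 comparisons. At week 12 and week 18 vs. pre-treatment the points of both kinds lie below 0, with medians of −0.55 and −0.38 for the 6 genes and −0.99 and −1.005 for the 13 markers.

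Within each animal, the change of each gene was set beside the mean change of the 13 B-lineage markers. This is a description of log2 CPM differences, with no test. At week 12, *CD72* lay 0.58 ± 0.26 above the marker mean, *FCER2* 0.44 ± 0.35 and *CD40* 0.37 ± 0.10 (SD, n = 5), each in 5 of 5 animals. *CD180* at 0.30 ± 0.53 and *HVCN1* at 0.20 ± 0.50 were above it in 4 of 5. *CR2* was at −0.06 ± 0.85 and above it in 2 of 5, Z15228 and Z13076. At week 18, *CD72* lay 0.76 ± 0.54 above the mean, *HVCN1* 0.60 ± 0.23, *CD180* 0.59 ± 0.58, *FCER2* 0.53 ± 0.45 and *CD40* 0.32 ± 0.14, each in 5 of 5 animals, and *CR2* 0.44 ± 0.49 in 4 of 5. Leaving out an animal moved the week 12 value of *CR2* between −0.29 (without Z13076) and 0.22 (without Z15303), with a change of sign but within its SD of 0.85. It moved *HVCN1* to 0.041 without Z15339 and 0.392 without Z13076, and *CD180* to 0.158 without Z15339 and 0.510 without Z15303. At week 18, *CR2* was at 0.273 and *CD180* at 0.358 without Z15228. Set against *MS4A1* alone, *CR2* at week 12 was at 0.13 ± 0.79 and above it in 3 of 5 animals, *CD180* at 0.49 ± 0.59 and *HVCN1* at 0.39 ± 0.63. *CD40* had the narrowest spread at week 12 against either reference. At week 18 this held against the marker mean but not against *MS4A1*, where its SD was 0.44.

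**Figure D5:**
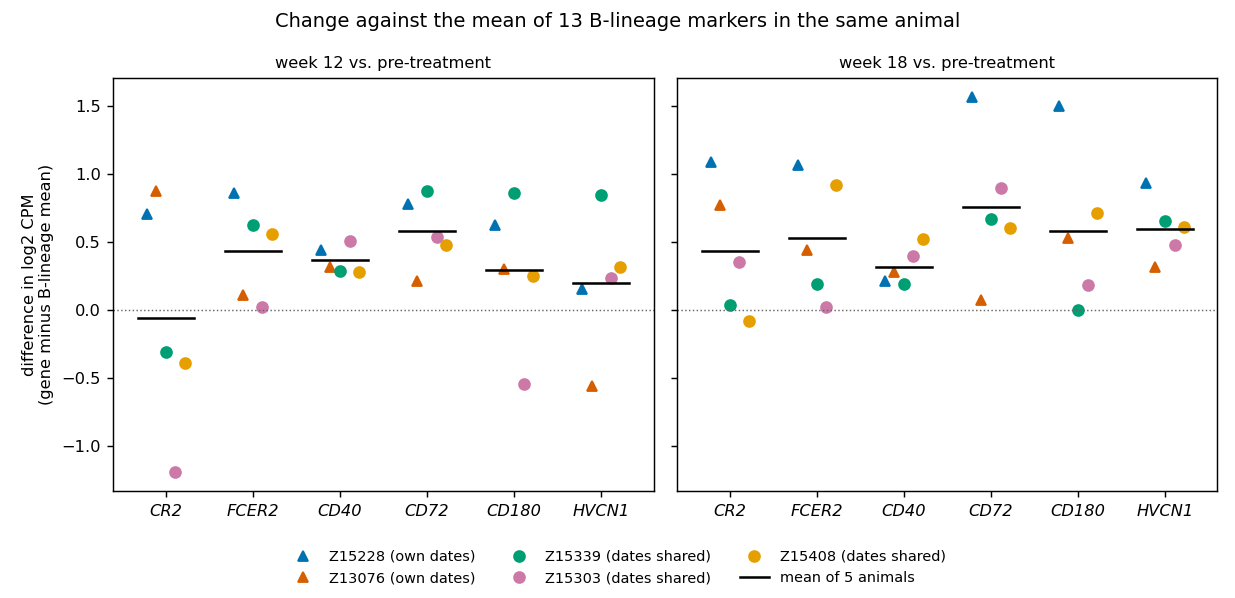
Change in log2 CPM of each gene minus the mean change of 13 B-lineage markers in the same animal (y axis), at week 12 (left) and week 18 (right), with points for animals and bars for means of 5. *CD40* lies between 0.28 and 0.51 in the 5 animals at week 12, whereas *CR2* runs from −1.19 to 0.88.

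The patterns over the 15 libraries were compared as well. Among 10773 tested features with a symbol, those with log2 CPM most like *CD40* were *FCRLA* (r = 0.958), *CD79B* (r = 0.953) and *TCF4* (r = 0.931), of which *FCRLA* and *CD79B* are on the B-lineage list. Those most like *FCER2* were *IRF8* (r = 0.919), *ALDH9A1* (r = 0.907) and *TEX261* (r = 0.897). For *CR2* they were *ORC3* (r = 0.887), *CYP4V2* (r = 0.876) and *TCAIM* (r = 0.865). *CD72* was closest to *FAM187B* (r = 0.901), *SP140* (r = 0.854) and *PTK7* (r = 0.839). The nearest to *CD180* were *ASPH* (r = 0.837), *FAM49A* (r = 0.828) and *MTSS1L* (r = 0.821), and to *HVCN1* they were *HHEX* (r = 0.865), *PNOC* (r = 0.841) and *CKLF* (r = 0.833). These are descriptions over libraries that share animals and depth, the highest of many, and carry no test. With each animal's mean removed, r was 0.569 to 0.718 for the 3 nearest to *FCER2* and 0.554 to 0.656 for the 3 nearest to *CD72*. For those nearest to *CR2*, *CD40*, *CD180* and *HVCN1* it was 0.706 to 0.963. Against *MS4A1* itself, *CD180* had r = −0.04 over the 15 libraries and r = 0.63 once each animal's mean was removed, and *FCER2* had r = 0.62 and 0.85.

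The known partners of these molecules were followed in lists of their own, and no gene of them passed by edgeR in any comparison. *CD81*, the tetraspanin of the complex that other PBMCs also make, had a log2FC of −0.06 (SE 0.10) at week 12 and 0.0048 (SE 0.10) at week 18. *CR1*, the other complement receptor, had −0.33 (SE 0.18) and −0.36 (SE 0.18).

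The counts that follow are read beside the 3.25% of all features at week 12 and 3.78% at week 18 that had an unadjusted *p* under 0.05 and a lower level. In the CD40 pathway, 2 of 16 genes had an unadjusted *p* under 0.05 at week 12, both lower: *REL*, an NF-kappa-B subunit, at −0.42 (SE 0.13, edgeR adjusted *p* = 0.569) and *TRAF3*, an adaptor that restrains the pathway, at −0.32 (SE 0.15, edgeR adjusted *p* = 0.982). At week 18 it was 1 of 16, *REL* at −0.34 (SE 0.13). Over the 16 genes the median log2FC was −0.10 at the first comparison and −0.04 at the later, and DESeq2 and limma-voom called none. Around CD180, the kinase gene *LYN* had −0.32 (SE 0.11, edgeR adjusted *p* = 0.669) at week 12 and −0.23 (SE 0.11, edgeR adjusted *p* = 0.830) at week 18. *LY96*, which encodes the TLR4 partner MD-2, had −0.44 (SE 0.17, edgeR adjusted *p* = 0.852) and −0.28 (SE 0.17, edgeR adjusted *p* = 0.881). *LY86*, the gene of CD180's own partner MD-1, had −0.06 (SE 0.17) at week 12 and 0.19 (SE 0.17) at week 18. *TLR4* had −0.22 (SE 0.21) at week 12 and 0.0073 (SE 0.21) at week 18.

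A list for inhibitory signalling of CD72 and FCGR2B held 11 genes, among them those of other inhibitory receptors and of a ligand of CD72. Its median log2FC was −0.16 at week 12 and −0.08 at week 18. At week 12, 3 of the 11 had an unadjusted *p* under 0.05 by edgeR, all lower. They were the sialic acid receptor genes *CD22* at −1.06 (SE 0.23, edgeR adjusted *p* = 0.170) and *SIGLEC10* at −0.42 (SE 0.15, edgeR adjusted *p* = 0.759), and *LYN*. At week 18 it was *CD22* at −1.11 (SE 0.23, edgeR adjusted *p* = 0.0890) and *LYN* at −0.23 (SE 0.11). DESeq2 and limma-voom called 1 of the 11 at each time, *CD22*. Of 3 genes of CD23 shedding and induction, 0 had an unadjusted *p* under 0.05, and *ADAM10* had −0.27 (SE 0.15) at week 12. Among 6 NADPH oxidase genes, whose product works beside the proton channel, it was *CYBB* at week 12 (−0.44, SE 0.14, edgeR adjusted *p* = 0.669) and none at week 18 (*CYBB* −0.19, SE 0.14). Of 4 other Fc receptor genes tested out of 7 listed, none had an unadjusted *p* under 0.05 against pre-treatment, and *FCGR2A*, the activating relative of FCGR2B, had −0.24 (SE 0.15) at week 12 and 0.23 (SE 0.15) at week 18. Its week 18 vs. week 12 log2FC was 0.48 (SE 0.15, unadjusted *p* = 0.00534, edgeR adjusted *p* = 1.00).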

How the data were processed

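PBMC RNA of 5 macaques at 3 time points gave 15 libraries. The authors used SMART-Seq v4 and Nextera XT, mapped the reads with STAR 2.7.9a to the *M. nemestrina* Ensembl genome, and deposited raw gene counts from its GeneCounts mode. The strand setting is not given in the sources used here. No 2 libraries were identical. Animals and time points came from the labels. Counts were fitted with edgeR 4.0.16 in R 4.3.3 (TMM, filterByExpr with a minimum count of 10, quasi-likelihood F test, time point and animal as terms). SE is the absolute log2FC over the square root of F, and log2 CPM used a prior count of 2. Libraries of the same animal deviated together (mean r = 0.551 over 15 pairs, lowest 0.351), which pairs them by animal. The biological coefficient of variation was 16.9% with the block and 29.3% without. The scripts were tested on simulated data. Alternatives were no block, DESeq2 1.42.0, limma-voom (limma 3.58.1), other scalings and filters, date sets, and leaving out each animal. Genes named are the members, the 3 features most like each, and genes of fixed lists with the smallest *p* at week 12. *MS4A1*, *CD81*, *FCGR2A*, *LY86*, *TLR4*, *PAX5*, *TNFRSF13C*, *SPIB* and 4 monocyte markers were added after their values were seen. Members and lists were chosen with earlier results of these data known. Values of an item withheld for evaluations are left out.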

Additional observations from a re-analysis of the deposited data

Results flagged for a closer look

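In *HVCN1* at week 18, Z15228 stood apart at 55.9 CPM. Its gap to the next animal was 0.810 of the range of the 5 animals, past Dixon's 95% limit. Of 18 groups of 5 animals examined this was the 1 flagged, and chance gives about 1 in 20. Z15228 also had the highest *HVCN1* level before treatment.

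For *CD180*, week 18 vs. pre-treatment, the 3 animals with shared dates were all lower and the other 2 were both higher. The difference in log2FC between the sets was −0.84 (SE 0.25, edgeR adjusted *p* = 0.136), which did not pass.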

How the results depend on the processing

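At week 12 the 6 log2FC stayed negative in all 16 alternative fits, which gave 96 values. Of these values, 5 passed the test where edgeR with the filter and all animals did not pass the gene. With no filter on low counts 3 genes passed, *CR2* (edgeR adjusted *p* = 0.000498), *CD180* (0.0137) and *HVCN1* (0.00195). DESeq2 passed 1, *HVCN1*, and the 3 animals with shared dates passed 1, *CR2*. At week 18, 1 gene passed with no filter, *CD40*, and 93 of 96 values kept direction and side of the threshold. The exceptions besides *CD40* were the 2 other animals alone, where *CR2* was at 0.028 and *CD180* at 0.11. Without the animal block, genes with an unadjusted *p* under 0.05 numbered 3 in place of 6 at week 12 and 2 in place of 5 at week 18, as with DESeq2 without the block (3 and 2). With the 2 other animals alone they numbered 2 and 1. Leaving out an animal gave 4 to 6 at week 12 and 1 to 5 at week 18, where the count was 1 without Z15303 and 2 without Z15339 or Z15408. For week 18 vs. week 12 there was 1 with no filter, 1 with limma-voom, 1 in the 3 animals with shared dates, 2 in the other 2, and 0 to 1 on leaving out an animal (1 without Z15303), against 0. In that comparison 6 of 96 values turned a sign. On leaving out an animal these were *CD72* without Z15228 (range −0.0015 to 0.192), *FCER2* without Z13076 (range −0.083 to 0.154) and *CD40* without Z15303 (range −0.274 to 0.0028). In the 3 animals with shared dates they were *FCER2* (−0.087), *CD72* (−0.020) and *CD180* (−0.023). No other call changed without the block.

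Over all features, 1 passed at week 12, against 0 without the block, 83 with no filter, 27 with DESeq2, 14 with limma-voom, 0 from the 2 time points alone, 7 in the animals with shared dates and 0 in the others, and 0 to 6 on leaving out an animal (6 without Z13076). At week 18, 1 passed, against 0 without the block by edgeR or DESeq2, 10 by library size without TMM, 136 with no filter, 51 with DESeq2, 18 with limma-voom, 17 from the 2 time points alone, 7 and 0 in the date sets, and 0 to 17 on leaving out an animal (17 without Z13076). For week 18 vs. week 12 it was 0, against 5 with no filter and 8 with DESeq2. Against *MS4A1* alone in place of the B-lineage mean, *CD40* lay 0.56 ± 0.15 higher at week 12 and 0.54 ± 0.44 at week 18 (SD, n = 5), and the other 5 genes also lay higher than against that mean, at 0.13 (*CR2*) to 0.77 (*CD72*) and 0.65 (*CR2*) to 0.98 (*CD72*). DESeq2 without the block and the test between date sets were chosen after seeing the data. The causes of these differences were not tested. The 6 genes had 23 to 689 counts per library, which limits the precision of the lowest values.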
